A study of Drosophila melanogaster with 4 samples.

Results

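The regions described here are the places where the Drosophila co-repressor Gug was found at the transcription start site (TSS) of a protein-coding gene. Places near the midpoint of neighbouring genes that start back to back were left out. Summits of the 4 per-replicate peak lists were joined when they lay within 200 bp, and a joined region seen in at least 2 lists was kept. Its position is the median of its summits. A region was taken as a core single promoter when that position lay within 200 bp of an annotated TSS and not within 500 bp of the midpoint of a divergent gene pair, that is, of neighbouring genes that head apart from TSSs at most 500 bp from each other. This gave 626 core single promoters of 2643 regions kept and 4466 regions joined. Besides a call in at least 2 lists, which hold only peaks past the authors' threshold, the rule used position alone. No signal value entered it directly.

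The series is a chromatin immunoprecipitation (ChIP-seq) of whole Drosophila melanogaster embryos collected over 0 to 24 h, in 4 biological replicates of 1 group. All embryos were of the strain Gug-GFP, which carries an insertion that targets Gug and makes a Gug-eGFP fusion protein, and the precipitation used an antibody to GFP. The labels name no treatment, and all replicates come from this strain. Whole embryos mix all tissues and stages of that day, so a region present in few cells and one weakly occupied in many cannot be told apart, and no control sample was analysed here. The 4 lists held 1948, 3786, 2117 and 2450 peaks on the chromosome arms for replicates 1 to 4, and the number of reads behind them is unknown. The replicates differed in kind as well as in length: replicates 2 and 3 held a larger share of the promoter regions than replicates 1 and 4, while for distal intergenic regions replicate 3 held the smallest share, so values are given for each list.

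Gug, also called Grunge, is the fly Atrophin, a nuclear co-repressor that is brought to DNA by other proteins, among them the nuclear receptor Tailless, and that works with histone deacetylases. The core promoter is the stretch around a TSS where the transcription machinery assembles. In flies, many broadly expressed genes carry the DNA replication-related element (DRE), which is bound by DREF, or Motif 1, which is bound by M1BP, whereas many developmentally regulated genes carry a TATA box, an initiator or a downstream promoter element (DPE). BEAF-32, an insulator protein found near the TSSs of many active genes, recognises CGATA, a run of letters that also lies inside the DRE.

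The sequences below show what the members look like, read from the RefSeq sequence of the dm6 build and printed 5' to 3' on the strand of the gene. They come from members on X, 2L, 3L and 3R called in all 4 lists. The first 3 are the strongest of these, with the 11 bases around the position in capitals. The others are, for each motif, the strongest one with a match within 75 bp of the position, with the motif in capitals: the DRE at Nsun5, a predicted RNA methyltransferase, Motif 1 at Cnx99A, a calnexin, the TATA box at CG3552, the DPE at CG1607, the E-box at Hpf1, and an 8-letter word treated further on at Top1, a DNA topoisomerase. The strongest member with initiator letters was CG14100 again. The PNPase and Nsun5 windows were shortened so that no more than 30 bases of a UTR are shown.
Ugalt, chrX:2703836-2703986, minus strand: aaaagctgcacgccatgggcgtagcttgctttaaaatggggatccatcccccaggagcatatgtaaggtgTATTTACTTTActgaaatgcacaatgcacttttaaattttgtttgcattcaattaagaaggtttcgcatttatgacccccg
CG14100, chr3L:19590562-19590712, minus strand: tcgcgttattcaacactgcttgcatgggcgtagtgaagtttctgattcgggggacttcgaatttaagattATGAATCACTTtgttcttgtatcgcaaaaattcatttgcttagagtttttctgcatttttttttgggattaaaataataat
PNPase, chr3R:31404591-31404667, minus strand: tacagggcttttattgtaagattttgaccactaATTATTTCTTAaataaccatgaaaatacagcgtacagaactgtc
Nsun5, chr3R:19162271-19162415, minus strand: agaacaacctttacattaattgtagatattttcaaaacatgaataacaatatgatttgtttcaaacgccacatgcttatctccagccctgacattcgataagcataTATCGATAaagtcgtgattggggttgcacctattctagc
Cnx99A, chr3R:29319637-29319787, minus strand: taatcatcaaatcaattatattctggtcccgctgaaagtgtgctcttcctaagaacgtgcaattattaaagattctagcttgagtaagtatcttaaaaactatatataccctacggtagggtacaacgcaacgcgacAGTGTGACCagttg
CG3552, chr3L:9457739-9457889, plus strand: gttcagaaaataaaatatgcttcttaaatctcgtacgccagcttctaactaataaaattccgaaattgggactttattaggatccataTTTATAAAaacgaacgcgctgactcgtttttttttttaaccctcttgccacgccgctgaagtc
CG1607, chr3R:31384209-31384359, plus strand: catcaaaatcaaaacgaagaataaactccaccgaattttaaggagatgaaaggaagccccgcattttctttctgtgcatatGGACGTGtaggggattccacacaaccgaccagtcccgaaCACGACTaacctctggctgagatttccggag
Hpf1, chr3R:5791732-5791882, plus strand: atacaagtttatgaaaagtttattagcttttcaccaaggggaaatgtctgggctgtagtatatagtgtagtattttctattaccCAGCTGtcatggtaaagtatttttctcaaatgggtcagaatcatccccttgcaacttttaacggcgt
Top1, chrX:15323330-15323480, plus strand: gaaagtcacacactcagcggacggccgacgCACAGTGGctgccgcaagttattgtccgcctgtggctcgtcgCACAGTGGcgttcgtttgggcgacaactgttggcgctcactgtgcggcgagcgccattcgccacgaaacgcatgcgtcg

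Gug summits at these promoters lay just upstream of the TSS. Of the 626 positions, 548 (87.5%, 95% Wilson interval 84.7% to 89.9%) were upstream, 2 were at the TSS and 76 were downstream. Intervals of this kind cover counting error only. The median position was 79.5 bp upstream of the TSS, given as -79.5 bp, with quartiles of -135 and -33.25 bp. Between -150 and -20 bp lay 405 members (64.7%), and within 20 bp of the TSS lay 50 (7.99%). Taken list by list, 86.0%, 88.8%, 87.9% and 88.9% of the members' own summits were upstream in replicates 1 to 4 (87.9% ± 1.34, SD, n = 4). The share exceeded 50% in 4 of 4 lists, and the exact two-sided sign-flip permutation test over the lists gave p = 0.13, which is the smallest p that 4 lists allow, so no test over the lists can pass 0.05. In the plot of distances, the profiles of replicates 2 and 3 peaked closer to the TSS than those of replicates 1 and 4.

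**Figure D1:**
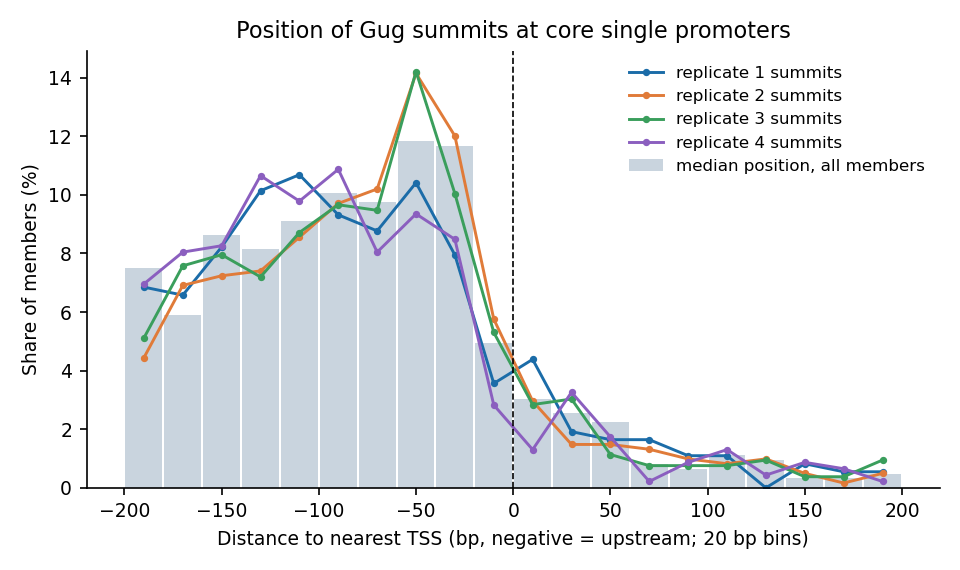
Distance of Gug summits to the nearest TSS at core single promoters, in 20 bp bins, as the share of members in percent; bars are the median positions of all 626 members, and each line is the members' summits in 1 list. In every list most summits lie left of the dashed line at the TSS, and the bars to its left hold 548 members.

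By annotation, 339 positions (54.2%) were intergenic, 152 lay in an intron, 120 in a 5' UTR, 13 in a 3' UTR and 2 in a coding exon. Most members marked 1 gene: 586 reached the TSS of 1 gene, 39 of 2 genes and 1 of 3 genes. Altogether 652 protein-coding genes had a core single promoter region, which is 4.67% of 13968 genes. Of the 10485 genes outside divergent pairs, 615 (5.87%) had one, and the other 37 genes with one belong to a divergent pair. The nearest TSS was the outermost one of its gene at 453 members (72.4%), so the others sat at an internal start. The members were spread evenly over the arms: the share of genes outside pairs that were reached ranged over 5.63% to 6.11% on 2L, 2R, 3L, 3R, 4 and X, and was 0 of 23 genes on Y. Genes with a core region had a median length of 3876 bp (n = 615), against 2028 bp for genes outside pairs with no Gug region within 1000 bp (n = 9291). Several annotated TSSs were listed for 53.3% of the genes with a core region and for 23.0% of the genes with no region, and a gene with more TSSs has more chances to meet the rule. Of the genes reached, 139 (21.3%) had a further Gug region of another kind within the gene or 1000 bp of it.

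The Gug signal at the core single promoters ranked above the middle of each list, and so did that of the other kept regions. Both had to be in 2 or more lists, while the ranks run over all peaks of a list. The authors' signal value of each peak was turned into its percentile within its own list, and the median percentile of the members was 56.5, 71.5, 56.2 and 57.8 in replicates 1 to 4. All other regions had medians of 53.6, 63.8, 52.3 and 57.4. The members were higher in 4 of 4 lists, by 3.73 ± 3.00 percentile points (SD, n = 4; exact sign-flip permutation p = 0.13). With a TSS window of 100 bp in place of 200 bp the difference changed sign, at -3.08 ± 5.36 points (SD, n = 4; exact permutation p = 0.375), and with the outermost TSS of each gene only it was 0.79 ± 3.54 points (exact permutation p = 0.875). Set against single classes, they were higher than distal intronic regions by 8.51 ± 4.77 and than distal intergenic regions by 7.86 ± 6.01 points, in 4 of 4 lists each (exact permutation p = 0.13 for both). Divergent promoters ranked above them: the difference was -3.53 ± 2.16 points, with the core single promoters lower in 4 of 4 lists (exact permutation p = 0.13). Against promoter-proximal regions, those between 200 and 1000 bp from a TSS, the difference of 2.26 ± 3.89 points was smaller than its spread, and 3 of 4 lists showed it (exact permutation p = 0.375).

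How often a list called the members depended on the list. Replicates 1 to 4 held 365, 608, 528 and 460 of them, that is 58.3%, 97.1%, 84.3% and 73.5%. Other regions were called at 70.1%, 90.5%, 71.8% and 79.2%, so the members were called more often in replicates 2 and 3 and less often in replicates 1 and 4. The mean difference of 0.40 ± 11.1 percentage points was far inside its spread (exact permutation p = 0.875). In all 4 lists were 286 members (45.7%, 95% Wilson interval 41.8% to 49.6%), close to the background of 44.3% of all regions and to the 43.9% of the other regions. Of the rest, 137 were in 3 lists and 203 in 2, and 120 of these last were in replicates 2 and 3 only. Members missing from a thresholded list mostly had a peak within 200 bp in the authors' longer ranked list of the same replicate. This held for 223 of 261, 14 of 18, 91 of 98 and 149 of 166 missing members in replicates 1 to 4. Those shares were 85.4%, 77.8%, 92.9% and 89.8%. Other regions missing from a list had 88.7%, 84.3%, 89.1% and 91.4%, so this was not particular to the members. The ranked lists held 32752 to 49135 peaks on the arms. The authors' conservative series-level set, made from all 4 replicates, held 579 members (92.5%) and 85.6% of the other regions.

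**Figure D2:**
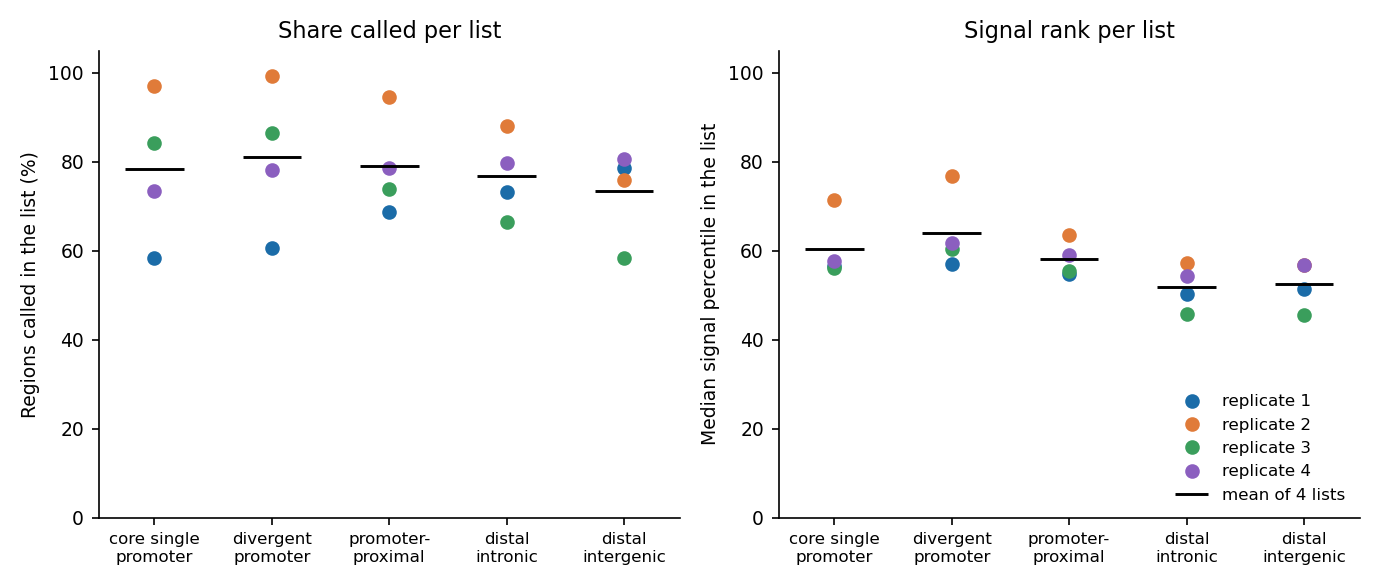
Left, the percentage of regions of each class called in each list; right, the median signal percentile of the called regions within each list; points are the 4 replicates and black lines their means. Core single promoters and divergent promoters show the same order of replicates on the left. There, core single promoters are at 97.1% in replicate 2 and 58.3% in replicate 1. On the right, replicate 2 stands above the other 3 for core single promoters and for divergent promoters.

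The median peak width was 284, 290 and 304 bp in replicates 1, 3 and 4, both at the members and at the other regions. In replicate 2 it was 289 bp at the members and 300 bp at the other regions. The commonest width was shared by 74.5%, 45.9%, 74.2% and 72.8% of the members' peaks in replicates 1 to 4. The median width of members minus other regions was -2.75 ± 5.5 bp (SD, n = 4; exact permutation p = 1). That difference came from replicate 2 alone. With so many peaks at 1 width, it cannot show whether widths are alike.

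The strongest members called in all 4 lists, each named by the gene of its nearest TSS, served many cellular roles. Ugalt, a UDP-galactose transporter of the Golgi, ranked first in every list (percentile 100 in each). Its signal was 838, 1412, 799 and 813 in replicates 1 to 4, on the authors' scale of each list. CG14100 followed at a percentile of 99.9 or more in each list, and then eIF6, a factor of ribosome assembly, at a mean percentile of 99.6 ± 0.23, and PNPase, a mitochondrial RNA exonuclease, at 99.4 ± 0.37 (SD over 4 lists). The next were px (plexus, a wing vein gene), moody, a receptor of the blood-brain barrier, the predicted transporter MFS10, and mRpL41, a mitochondrial ribosomal protein. GstE13, a glutathione transferase, and TRAM, which helps proteins enter the endoplasmic reticulum, came after them. The stress-linked genes Atf3, Hsp27 and Sesn had mean percentiles of 98.02 ± 1.25, 97.5 ± 0.97 and 97.4 ± 0.77. Also among the first 25 were amon and Pal1, which process neuropeptides, the receptor gene mthl1, the predicted transporter MFS18, Tina-1, and CG3552, CG11857, CG18549, CG13921, CG1607, CG31145 and CG2811. Of these 25, the position of CG2811 lay 27 bp downstream of the TSS, and the others were upstream, at -19 bp for MFS18 to -198 bp for Sesn.

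At the other end, 5 members called in all 4 lists had the lowest mean percentiles: pck, a claudin of septate junctions, at 28.9 ± 12.1, Gug itself at 28.8 ± 22.3, the reticulon Rtnl1 at 28.2 ± 23.6, CHES-1-like at 28.1 ± 22.2 and Camta at 26.7 ± 12.3. Without replicate 2, Rtnl1 was at 18.7 and CHES-1-like at 17.3. The Gug promoter region lay at -50 bp, on chr3L:8449673-8450162, and ranked at percentiles 23.5, 56.2, 2.41 and 33.0 in replicates 1 to 4. Gug is also the gene that the insertion targets, and any part of the insertion in these values was not tested.

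The replicates disagreed most about CG9849, Vha13, Alg3, su(r) and RnrS. At CG9849 the percentiles were 15.4, 92.0, 82.1 and 10.3 in replicates 1 to 4, and at Vha13, a subunit of the proton pump of acidic organelles, 18.3, 87.0, 72.7 and 5.67. Both were high in replicates 2 and 3 and low in replicates 1 and 4. Alg3, an enzyme of N-glycan synthesis, was low in replicate 3 alone, at 14.9 against 71.9 to 94.7 in the others.

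At the edge of the rule, the members farthest from a TSS were Gcn5, a histone acetyltransferase, T48, which acts in gastrulation, and Cyp1, a cyclophilin, all at -199 bp, with mean percentiles of 85.3, 30.2 and 14.96. The nearest regions beyond 200 bp were those of Kah and usp at -201 bp and bcd at -202 bp, with 89.9, 50.8 and 62.3.

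The letters under the summits differed between core single promoters and other regions. Matches were counted on both strands in windows that reach 100 bp to either side of the position. A match is a description of the letters and shows no binding of the factor named. The DRE (TATCGATA) was in 44 members (7.03%; 3.85% of the members called in all 4 lists), in 12.2% of divergent promoter regions, 1.07% of promoter-proximal, 0.151% of distal intronic and 0.306% of distal intergenic regions. CGATAG, which shares CGATA with the DRE and overlaps it wherever a G follows it on either strand, was in 132 members (21.1%), in 28.7% of divergent promoter, 6.98% of promoter-proximal, 3.17% of distal intronic and 4.89% of distal intergenic regions. The E-box CAGCTG was in 14.5% of members and 19.4% of divergent promoter regions, and in 4.28% to 7.40% of the other 3 classes. For GAGAG, bound by the GAGA factor, the order was the other way: 23.5% of members and 15.1% of divergent promoter regions held it, against 26.0% to 32.6% of the other 3 classes. The mean GC content was 39.7% in members and 37.7% in the other regions.

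Set against promoters rather than against other Gug regions, the differences were smaller for most motifs. Here the window ran from 250 bp before to 50 bp after the TSS, 301 bp in all, for the nearest TSS of a member and the outermost TSS of every other gene. The DRE was in 10.1% of members' promoters, 6.07% of 9291 promoters outside pairs with no region within 1000 bp and 9.36% of all 13968 promoters. CGATAG was in 26.4% of members' promoters, 14.1% of promoters with no region and 19.5% of all. The TATA box (TATAAA, both strands, anywhere in the window) was in 44.6% of members' promoters, 45.4% of promoters with no region and 45.9% of all. On the strand of the gene and starting 40 to 20 bp before the TSS, TATAAA was in 23 members (3.67%), 9.65% of promoters with no region and 7.78% of all. An initiator (TCAGTT, with T also allowed as the fourth letter and C as the last) starting between -12 and +8 bp was in 16.1% of members, 16.2% of promoters with no region and 13.9% of all. A DPE (GGACGTG, with A also allowed as the first letter and T as the third) starting 15 to 40 bp after the TSS was in 17 members (2.72%), 1.39% of promoters with no region and 1.23% of all.

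An unlisted word stood out when all 8-letter words were counted in the 301 bp windows. CACAGTGG, on either strand, was in 46 members' promoters (7.35%), 0.904% of promoters with no region, 1.26% of all promoters and 3.12% of divergent promoters with a region. Of the words scanned it had the largest difference between members and promoters with no region, and it was chosen for that, so the difference is a description with no test. It was higher in members on each of the 5 large arms, from 4.96% against 1.05% on 3L to 10.5% against 0.627% on 2L. The arms divide the same promoters on which the word was chosen, so they give it no separate support. Around the summits it was in 44 members (7.03%), 1.78% of divergent promoter regions, 7.33% of promoter-proximal, 8.01% of distal intronic and 4.89% of distal intergenic regions, so it was also held by regions far from any TSS. Of 47 matches, 36 (76.6%) had a G just before the word. Its matches in these windows lay a median of 41.5 bp from the position. Related words with CACAGTG also led the scan: CACTGTGC, which reads GCACAGTG on the other strand, was in 7.19% of members' promoters and 1.17% of promoters with no region. CTATAAAA, a TATA-like word, was among those scarcer in members, at 2.72% against 5.69%.

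The word is shown here in strong members from X, 2L and 3L that hold it, 28 bases each on the strand that reads CACAGTGG, which is in capitals. Among them are spi, which encodes the EGF receptor ligand Spitz, PAN3, part of a deadenylase, and MRP, a drug-export pump.
RluA-1, chr2L:10474409-10474436, plus strand: ttttccgctgCACAGTGGggcaaaccgc
PAN3, chr3L:3081502-3081529, minus strand: agcgactgcgCACAGTGGtcgcaaaagc
spi, chr2L:19575660-19575687, plus strand: atgccaacggCACAGTGGttgcgatgcg
RapGAP1, chr2L:7530627-7530654, plus strand: tctgccaacgCACAGTGGgccagacaca
CG8034, chrX:19298206-19298233, plus strand: accgtcgtcgCACAGTGGgccaaattaa
CG31808, chr2L:16716375-16716402, minus strand: ctgcatcgtgCACAGTGGgagaaaagaa
MRP, chr2L:12722201-12722228, minus strand: atttcgcgggCACAGTGGgtgtcggatg

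**Figure D3:**
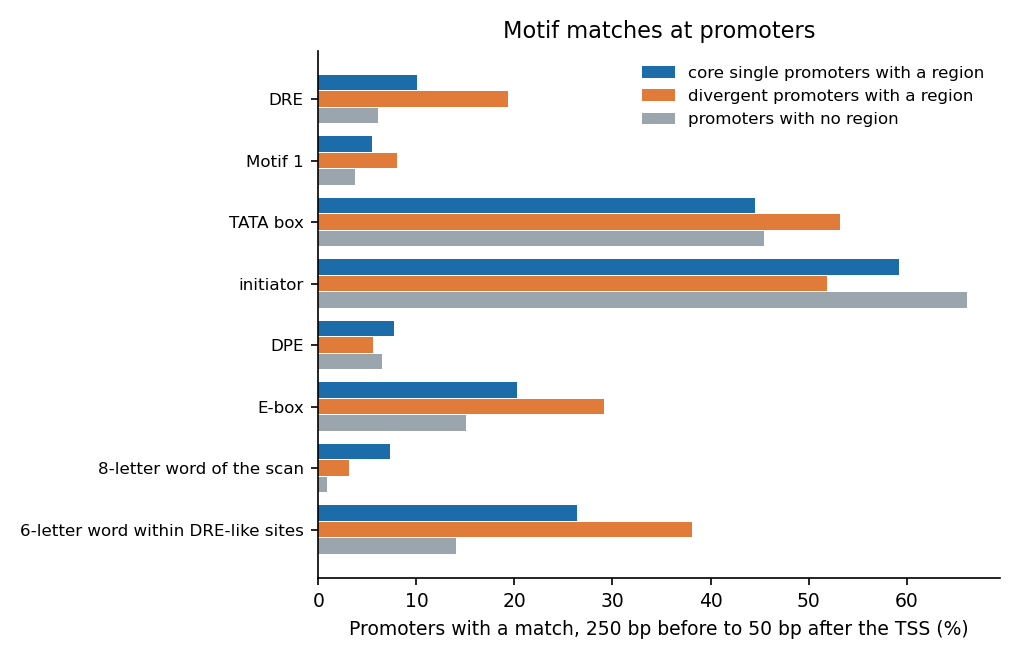
Share of promoters with a match in the 301 bp window, in percent, for core single promoters with a Gug region, divergent promoters with a Gug region and promoters with no region within 1000 bp; the 8-letter word is CACAGTGG and the 6-letter word is CGATAG. The 8-letter word is at 7.35%, 3.12% and 0.904% in that order, while the DRE and the 6-letter word are highest at divergent promoters.

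Members with CACAGTGG and members with CGATAG behaved differently across the lists. Both words were in 4 members, CACAGTGG without CGATAG in 40, CGATAG without CACAGTGG in 128 and neither in 454. Replicates 1 to 4 called 82.5%, 100%, 90% and 87.5% of the CACAGTGG members. The CGATAG members were called at 32.8%, 99.2%, 90.6% and 56.25%, and those with neither word at 63.4%, 96.3%, 81.9% and 77.3%. Replicates 2 and 3 thus called nearly all of either kind, and replicates 1 and 4 called far fewer CGATAG members. The rule in part forces the high shares in replicates 2 and 3. A member absent from replicates 1 and 4 had to be in both of the others to be kept. In all 4 lists were 28 of the 40 CACAGTGG members (70.0%) and 35 of the 128 CGATAG members (27.3%). Of the 454 members with neither word, 221 (48.7%) were in all 4 lists. The mean difference in the share called, CACAGTGG minus CGATAG members, was 20.3 ± 24.5 percentage points, positive in 3 of 4 lists (exact sign-flip permutation p = 0.25).

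Signal also differed with the letters under the summits. The members with CACAGTGG had median percentiles of 77.5, 79.3, 66.4 and 80.9 in replicates 1 to 4, against 53.7, 70.4, 54.1 and 56.0 for members without it. The difference was 17.5 ± 8.08 points, higher in 4 of 4 lists (exact permutation p = 0.13). The members with CGATAG had medians of 51.8, 73.7, 46.1 and 41.7, against 57.4, 71.2, 60.4 and 59.2 without it. The difference of -8.71 ± 9.03 points was inside its spread, and replicate 2 went the other way (exact permutation p = 0.25). The members with the DRE had medians of 50.6, 70.5, 42.4 and 52.2, against 56.5, 71.7, 57.6 and 58.1 without it, a difference of -7.07 ± 5.91 points and lower in 4 of 4 lists (exact permutation p = 0.13). Among members called in all 4 lists, both differences were smaller, at 10.2 ± 6.34 points for CACAGTGG and -1.83 ± 5.04 points for the DRE, the second inside its spread. A total of 17 motifs and words were compared in this way, and since none of these p-values can go below 0.13, none passes any correction over them.

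**Figure D4:**
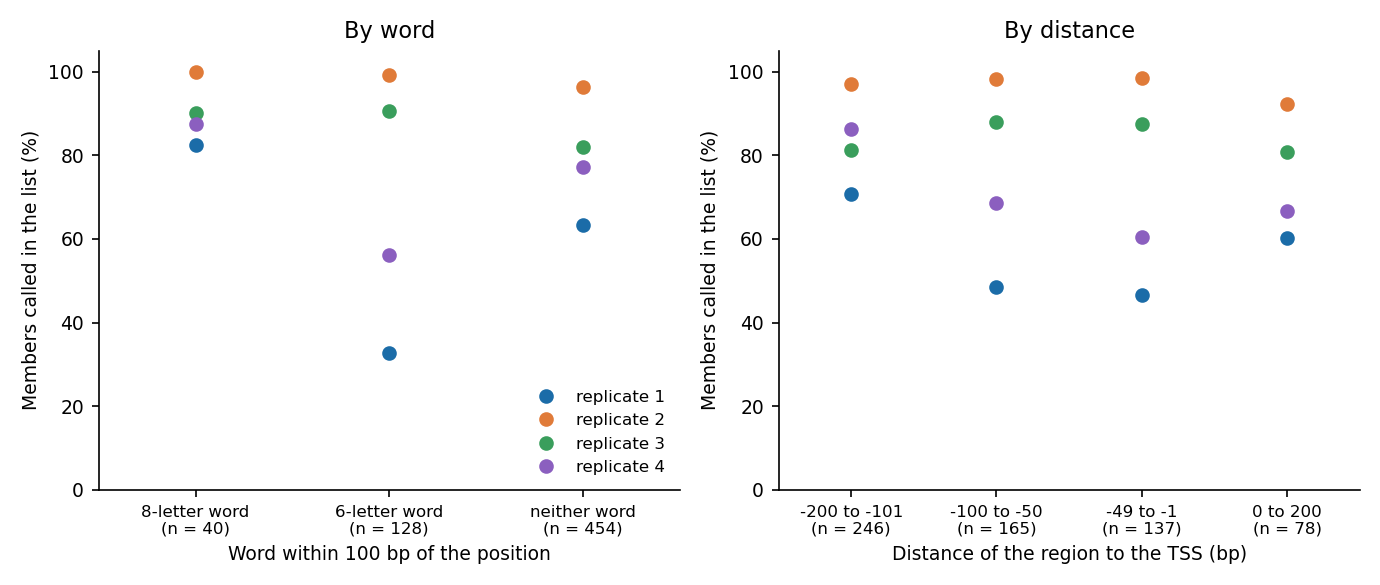
Percentage of core single promoters called in each of the 4 lists, on the left by the words within 100 bp of the position (8-letter word CACAGTGG, 6-letter word CGATAG) and on the right by distance to the TSS, with the number of members under each column. Replicates 1 and 4 drop to 32.8% and 56.25% for the 6-letter word, and both fall from left to right over the 3 upstream bands.

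The same split of the lists ran along the distance to the TSS. Members more than 100 bp upstream (246) were called at 70.7%, 97.2%, 81.3% and 86.2% in replicates 1 to 4, and members 1 to 49 bp upstream (137) at 46.7%, 98.5%, 87.6% and 60.6%. Their median percentiles were 65.4, 74.2, 64.8 and 63.4 for the farther band and 42.7, 71.2, 48.5 and 47.6 for the nearer one. The farther band was higher in 4 of 4 lists, by 14.4 ± 8.26 points (exact sign-flip permutation p = 0.13). Distance and words moved together: CGATAG was in 7.72% of the members more than 100 bp upstream and in 39.4% of those 1 to 49 bp upstream, and CACAGTGG in 12.2% and 3.65%. Within the band of 1 to 49 bp, 22.2% of the members with CGATAG and 45.8% of those without it were in all 4 lists. The order was the same 50 to 100 bp upstream, at 24.5% of 49 with CGATAG and 45.7% without it. Downstream it was 0% of 10 with CGATAG and 45.6% without it. Only among the members more than 100 bp upstream was the order reversed, at 68.4% of 19 with CGATAG and 55.9% without it.

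Among the genes, those of the cytosolic ribosome stood highest of the 21 lists examined. Of 86 genes for cytosolic ribosomal proteins, 18 (20.9%) had a core single promoter region, beside 4.67% of all protein-coding genes, and outside divergent pairs 18 of 53 (34.0%) did, beside 5.87%. By list, 6.98%, 20.9%, 12.8% and 18.6% of the 86 had a region called in replicates 1 to 4 (14.8% ± 6.25, SD, n = 4), so replicate 1 called the fewest. Without replicate 2, 10 of the 86 genes had a region. A region called in all 4 lists was at 5 of the 86, beside 303 of all 13968 protein-coding genes. By that stricter count the ribosomal share was below those of the co-repressors (2 of 21), the Notch list (2 of 22) and DNA replication (3 of 35). RpS28b was the strongest, at -23 bp and percentiles of 64.3, 88.7, 79.97 and 92.1. RpL23A, RpS4 and RpL41 followed, with mean percentiles of 77.3, 76.0 and 70.2, and RpL10 and RpL10Aa had no core region. The TSS nearest to the RpL41 region was that of another gene, NaCP60E. Of the 18 regions, 11 (61.1%) lay within 30 bp of the TSS, against 15.5% of all members. The DRE was in 7 of the 18 (38.9%), against 7.03% of all members, CGATAG was in 9, and CACAGTGG in 0.

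Another 3 lists, all of nuclear factors, held 5 genes each. The shares in this paragraph stand beside 4.67% of all protein-coding genes and 5.87% of genes outside pairs. The DNA replication list had 5 of 35 genes (14.3%), and 5 of 22 outside pairs (22.7%). Its strongest were Dp, the partner of E2F, at a mean percentile of 92.1 ± 6.73, and Mcm2, a subunit of the replicative helicase, at 82.3 ± 11.2. The others were E2f2, RnrS and dup. For E2f2 and dup, the TSS nearest to the region was that of another gene, Mpp6 and SRPK in this order. E2f1 had no core region, and Cdc45 belongs to a divergent pair, which the rule mostly leaves out. Without replicate 2 the count was 3. The list of chromatin and insulator factors had 5 of 42 (11.9%, and 5 of 22 outside pairs): Trl, the GAGA factor, BEAF-32, osa, pita and ph-p. CTCF had none, and Adf1 belongs to a divergent pair. General transcription and Mediator had 5 of 67 (7.46%, and 5 of 29 outside pairs), led by Taf4, Polr2F and TfIIA-S, and 3 without replicate 2. In all 4 lists were 3 genes of DNA replication, 2 of chromatin and insulator factors and 0 of general transcription and Mediator. The count over all 13968 protein-coding genes was 303. The co-repressor list had 2 of 21 genes (9.52%): gro, which encodes Groucho, at percentiles of 93.9, 95.9, 93.8 and 95.8, and Gug. The nuclear receptors had Eip75B and Hr78 of 21 genes (9.52%), with mean percentiles of 28.9 and 12.3, and EcR had no core region. That count was 1 without replicate 1 or 3.

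Genes of protein synthesis, turnover, mitochondria and the cell cycle other than the cytosolic ribosomal proteins were closer to the 4.67% of all genes, at 2.74% to 9.26% per list. Outside divergent pairs their shares ran over 5.56% (mitosis and the cell cycle) to 15.4% (splicing), beside 5.87%, and mitochondrial ribosomal proteins, with 51 of 73 genes in pairs, were at 9.09%. Translation factors had 5 of 54 genes, led by eIF6, eIF3c and eEF1alpha1, and tRNA synthetases 2 of 33, SerRS and AspRS. The TSS nearest to the AspRS region was that of another gene, Nmda1. The proteasome had 2 of 32, Rpn6 and Prosalpha3, splicing 2 of 35, B52 and Prp39, and mitochondrial ribosomal proteins 2 of 73, mRpL41 and mRpL4. Oxidative phosphorylation had 4 of 79, led by blw, ND-MWFE and COX5A, and the TSS nearest to the ND-MWFE region was that of another gene, TppII. Heat shock genes and chaperones had 2 of 26, Hsp27 and Hsp26, and mitosis and the cell cycle 1 of 33, BubR1. The counts of 2 were 1 without replicate 2 or 3 for the tRNA synthetases and the proteasome and 1 without replicate 1 or 4 for heat shock. The splicing count was 1 without replicate 2 or 3 and 0 without replicate 4.

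Lists of signalling genes held 2 or 3 genes each, beside 4.67% of all genes. The Notch list had 3 of 22 genes (13.6%), namely gro, numb (mean percentile 82.2) and mib1. The EGF receptor list had 2 of 24 (8.33%; 1 without replicate 2 or 4): spi, at 92.3, 96.9, 90.9 and 92.2, and edl, at 32.0 in replicate 2 and 25.1 in replicate 4. Lists of tissue genes had shares near the 4.67% of all genes: the muscle list had 1 of 23 (4.35%), tin, a heart and mesoderm factor, at a mean percentile of 72.4 ± 5.48, and the neural list had 1 of 25 (4.00%), da, and 2 without replicate 4. No core region was found at the 39 embryonic patterning factors, such as Abd-B and Antp, the 138 cuticle and Osiris genes or the 180 chemoreceptor genes. The patterning count was 1 without replicate 1, without replicate 4 and with a TSS window of 500 bp.

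**Figure D5:**
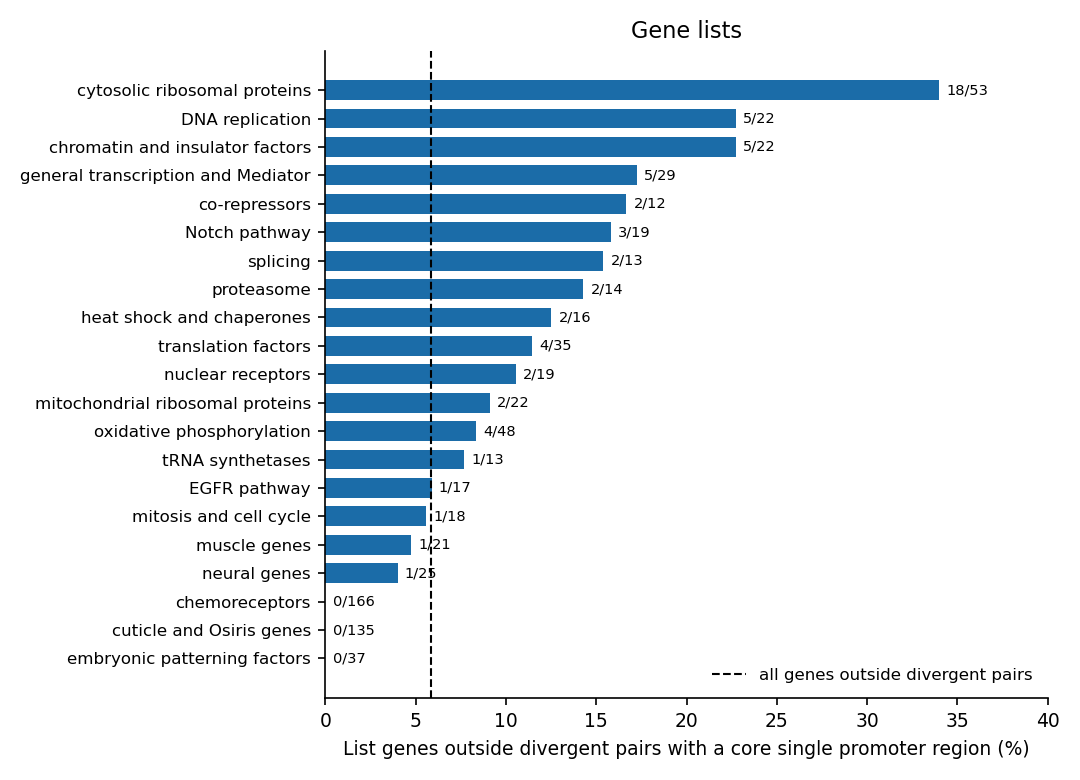
Percentage of the genes of each list outside divergent pairs that have a core single promoter region, with the counts beside the bars; the dashed line is the share of all genes outside pairs, 5.87%. Cytosolic ribosomal proteins reach 34.0%, and the bars of the last 3 lists are at 0.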

How the data were processed

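ChIP-seq peak lists of 4 replicates of 1 group were analysed. Per the labels, coordinates are dm6. No source used here names the aligner or the peak caller. Peaks were called per replicate, and series-level sets on all 4 replicates together, per the file names and README texts the authors deposited. Each deposited peak carries the authors' signal value, a -log10 q-value and a score, at least 830 in each thresholded list. The signal, the authors' own value of a peak, was used only as a percentile within its list. No read counts are given, so depth is unknown.

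Peaks on 7 arms were joined in Python 3.11.15 (numpy 2.4.6, pandas 2.3.3, scipy 1.17.1) and placed on 13968 protein-coding genes of Ensembl release 115. Sequence is RefSeq's for the same build. Replicates were compared by exact two-sided sign-flip permutation tests over the lists. The 13 listed motifs were joined by 4 words added after the 8-letter scan. Of the list symbols, 1084 matched, 19 of them through older names, and 2 (Dl, Hop) did not.

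By rule the text names the 25 strongest members in all 4 lists, up to 4 genes with and 2 without a region per gene list, the 5 weakest, the 5 most variable, those at the edge of the distance rule, and Gug. The members, lists and words were chosen with earlier results of these data known. The steps were tested on simulated data.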

Additional observations from a re-analysis of the deposited data

Results flagged for a closer look

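Of 70 sets of 4 list values examined, 2 had 1 list whose gap to the nearest other exceeded the 95% critical value of Dixon's ratio of gap to range for 4 values, and chance flags about 1 in 20 such sets. The median signal percentile of the core single promoters was 71.5 in replicate 2 and between 56.2 and 57.8 in the others. Divergent promoters were also highest in replicate 2, at 76.9 against 57.0 to 61.8. So were all regions other than core single promoters, at 63.8 against 52.3 to 57.4. Replicate 2 also has the longest list, with 3786 peaks, against 1948 to 2450 in the others, and the part of list length in these values was not tested. The word CATCTCTA was in 3.91% of the members called in replicate 4 and in 4.93% to 5.11% of those called in the others.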

How the results depend on the processing

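No paired analysis was possible because the samples form 1 group. Of the 167 alternative values for the main results, 118 kept their direction for a tested result, stayed within 1.5 times for a count, or moved by less than 1 SD over the lists for a value with no test. No test over the lists can pass 0.05 in any setting, so the side of that threshold could not change. A tested value that shrank or grew but kept its sign is thus among the 118. The count of 626 members was 286 for regions in all 4 lists, 352 with the stronger 50% of each list, 360 with a TSS window of 100 bp, 1048 with the authors' largest series-level set and 1069 with divergent promoters kept. The 652 genes were 303, 371, 374, 1064 and 1305 in the same order, and 997 with a TSS window of 500 bp. The number of gene lists above the share of all genes, 14 of 21 with that share at 4.67%, was 12 to 13 without 1 replicate. The share of all genes was taken anew in each setting. Leaving out 1 replicate gave 435 to 605 members and 460 to 629 genes. The signal difference of 3.73 points turned to -3.08 with a TSS window of 100 bp, was 0.79 with the outermost TSS of each gene only and ran over 2.80 to 4.14 without 1 replicate. The difference in the share called, 0.40, was -4.37 with that window, -0.48 with outermost TSSs only and ran over -0.31 to 2.33 without 1 replicate. The width difference of -2.75 bp was -23.1 bp in 3 or more lists, 0 with a TSS window of 500 bp, and -19.7 to 0 without 1 replicate.

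The DRE share of 7.03% was 4.26% in 3 or more lists, 3.85% in all 4, 5.40% in the stronger 50%, 9.21% and 8.68% in the authors' conservative and largest sets, 10.3% and 5.18% with TSS windows of 100 and 500 bp, 9.26% with divergent promoters kept, 4.79% and 10.7% within 50 and 200 bp of the position, 10.1% in the TSS window, and 4.37% to 7.11% without 1 replicate. In the same order the TATA share of 31.6% was 34.0%, 34.3%, 33.8%, 28.0%, 27.9% and 27.8% (100 bp), 33.5% with divergent promoters kept, 15.3%, 49.8% and 44.6%, and 31.4% to 33.6% without 1 replicate. The mean GC of 39.7% was 39.4% in all 4 lists, 40.4% and 40.8% in the authors' sets, 40.8% and 39.02% with TSS windows of 100 and 500 bp, 38.5% with divergent promoters kept, 41.0% within 50 bp, and 39.3% to 39.97% without 1 replicate. The cause of these shifts was not tested, except that longer windows hold more matches by construction.

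Chosen after seeing the data, the CACAGTGG share of 7.03% was 3.61% with a TSS window of 100 bp and 10.5% in all 4 lists. Its signal difference of 17.5 points was 10.2 among members in all 4 lists, 15.6 by q-value and 14.1 to 17.6 without 1 replicate. The DRE difference of -7.07 points was -1.83 and -1.35 in those settings. Over 4 lists no p can go below 0.13, or below 0.25 without 1 list. Depth is unknown, so a missing call cannot be read as missing occupancy.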

Other observations

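The sequences of Ugalt and CG14100, the strongest pair of members, both held CATGGGCGTAG, the longest run of letters that their windows share. It was noticed after their values were seen, so its count carries no test. Within 100 bp of the position it was in 3 members and in 7 of 2017 other regions. In the 301 bp promoter windows it was in 4 members and in 10 of all 13968 promoters. The other member with it in the summit window was called in all 4 lists at a mean percentile of 54.9 ± 3.03 (SD over 4 lists), far below the first pair.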
